A study of Mus musculus with 6 samples.

Results

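The muscle BTB-kelch genes Klhl30, Klhl31, Klhl33, Klhl38, Klhl40, Klhl41, Kbtbd12 and Kbtbd13 were read out in the quadriceps femoris, a thigh muscle, of Prr14-KO and Prr14-WT mice. They are 8 of the 22036 genes listed, found by gene symbol. Klhl31 was picked because it was much lower in KO than in WT muscle, and the others as its relatives in muscle, so the Klhl31 values below are a description and carry no test. PRR14 anchors heterochromatin at the nuclear lamina, and the series title links it to mechanotransduction, myofibre identity and MEF2C. Total RNA was sequenced as nanopore cDNA in 3 KO and 3 WT libraries, with no treatment named. Age, sex, strain background and the deleted part of Prr14 are not stated in the labels, nor is whether the knockout is confined to muscle.

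BTB-kelch proteins pair an N-terminal BTB domain, which binds the scaffold cullin 3, with C-terminal kelch repeats, which bind a client protein. Many serve as substrate adaptors of the CUL3 ubiquitin ligase, and some in muscle instead stabilise their client. KLHL40 protects nebulin and leiomodin 3 of the thin filament, KLHL41 protects nebulin, and KLHL31 acts on filamin C. Mice without Klhl31 have a myopathy, and mutations of human KLHL40, KLHL41 and KBTBD13 cause nemaline myopathy. KLHL30, KLHL33, KLHL38 and KBTBD12 are less well studied.

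The listed genes held 1488684 to 1678288 reads per KO library and 1436099 to 1712975 per WT library. Levels are CPM, the reads of a gene relative to the reads of its library after TMM scaling, with SDs over 3 libraries. The targeted gene Prr14 had 4, 10 and 3 reads in KO libraries, against 9, 11 and 12 in WT libraries (adjusted p by edgeR = 0.196), so the labels were only weakly checked at this depth. All 12 skeletal muscle markers were tested, and their summed level was 158506 to 174187 CPM in KO and 209484 to 264441 CPM in WT libraries. Of these markers 6 were lower in KO (Acta1, Cacna1s, Myh4, Mylpf, Neb and Ttn) and 0 were higher, and of 11 fast-fibre genes 6 were lower (Casq1, Myh4, Myl1, Mylpf, Pvalb and Tnnc2) and 0 higher. Of all 6680 tested genes 3.28% were lower and 2.98% higher. The summed level of 10 slow-fibre genes varied within genotypes, at 392, 1578 and 156 CPM in KO replicates 1 to 3 and 505, 409 and 91.7 CPM in WT replicates 1 to 3, and 1 of them, Casq2, was called higher. Among 45 tested markers of 9 other cell populations edgeR called 0 (3 at an unadjusted p under 0.05), as did DESeq2 and limma voom, with 7 and 4 at an unadjusted p under 0.05. Calls appeared with library totals (2), no filter (3), without WT replicate 2 (1) and without WT replicate 3 (4). The summed leukocyte markers were 222 to 247 CPM in KO and 196 to 597 CPM in WT libraries, those of red blood cells 1401 to 2016 CPM in KO and 1623 to 4002 CPM in WT, and none of either list was at 0. Their part in the results was not tested. In whole muscle, fewer fibres of a type and less RNA per fibre cannot be told apart. The labels do not say that each library is a separate animal, and a p-value here reflects only library-to-library spread, which may be technical.

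Of the 8 genes, 6 had enough reads to be tested and Klhl33 and Kbtbd13 did not. Klhl38 entered the test only through its WT libraries, where it was higher. Klhl31 and Klhl38 were called lower and 0 of the 8 were called higher, where 6.26% of all tested genes were called in either direction. Because Klhl31 was chosen on this contrast, nothing is read from that count. Over all genes, the alternatives that keep the 6 libraries called 6.24% with RLE scaling, 6.29% with upper-quartile scaling, 12% with library totals, 7.11% without the 20 most abundant genes in library sizes, 4.94% with no filter, 5.73% with a filter of 5 CPM in 3 libraries, 4.82% with DESeq2, 5.18% with limma voom, 5.79% with robust=FALSE and 6.29% with the slow-fibre score. The share was 4.85%, 5.19% and 4.86% without KO replicates 1, 2 and 3, and 3.86%, 3.39% and 4.33% without WT replicates 1, 2 and 3.

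**Figure D1:**
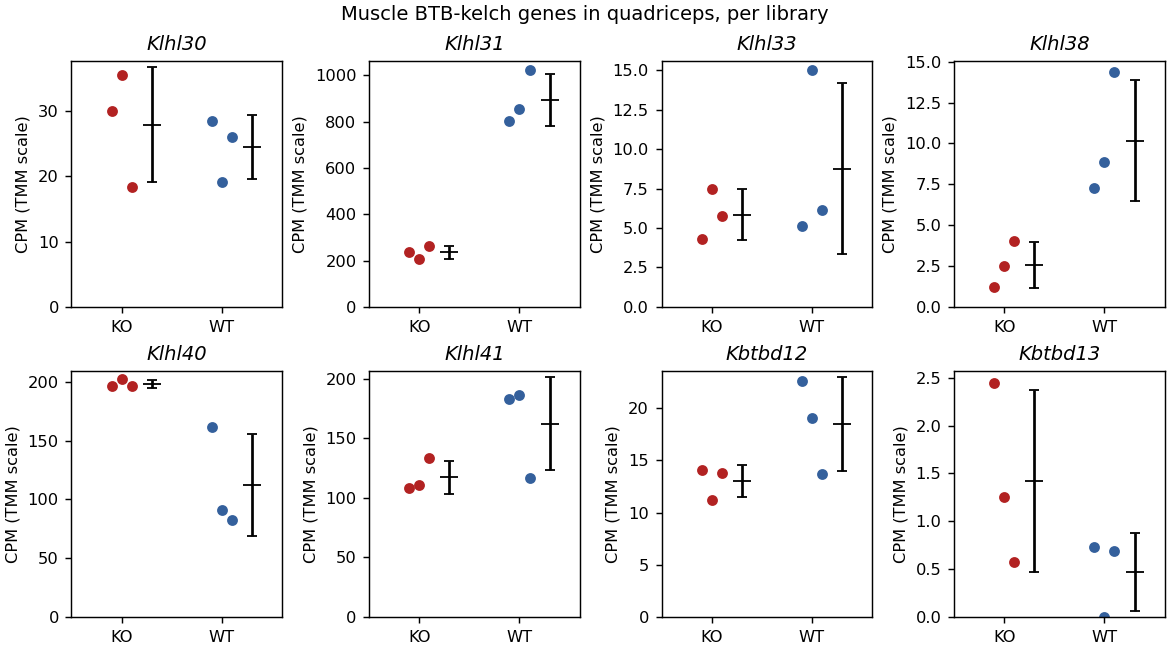
CPM on the TMM scale (y axis, from 0 in each panel) of each of the 8 genes in 3 KO libraries (red) and 3 WT libraries (blue), with the mean and SD in black. Klhl31 and Klhl38 lie lower and Klhl40 higher in every KO library than in any WT library, and the other 5 genes overlap.

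The upstream regions of Klhl40 and Klhl41 are shown because both proteins act on nebulin while the ratio of their reads differed between genotypes, as given below. They are the 250 bases before the RefSeq start on GRCm38.p6, 5′ to 3′, at chr9:121777357-121777606 and chr2:69669870-69670119, both on the plus strand. Capitals mark the only matches found among 4 motifs searched on both strands: the MEF2 consensus, the CArG box bound by serum response factor, the E-box CAGCTG bound by MyoD and myogenin, and the M-CAT motif CATTCC bound by TEAD factors.
Klhl40: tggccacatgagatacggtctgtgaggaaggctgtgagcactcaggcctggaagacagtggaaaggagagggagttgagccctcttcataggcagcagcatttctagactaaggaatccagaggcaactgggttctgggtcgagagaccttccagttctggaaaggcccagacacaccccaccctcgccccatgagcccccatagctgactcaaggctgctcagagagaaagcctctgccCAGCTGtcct
Klhl41: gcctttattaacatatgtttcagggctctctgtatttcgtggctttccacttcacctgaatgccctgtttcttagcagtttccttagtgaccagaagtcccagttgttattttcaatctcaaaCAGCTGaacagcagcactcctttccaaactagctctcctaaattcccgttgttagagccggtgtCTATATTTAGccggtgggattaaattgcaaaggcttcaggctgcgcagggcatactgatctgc
Klhl40 held an E-box at position -10 from the start and no MEF2 match. Klhl41 held an E-box at -127 and the MEF2 match CTATATTTAG at -63. Of 32851 RefSeq upstream windows of this length, 13.0% held this E-box and 2.92% a MEF2 match. A MEF2 match was also found in the windows of Klhl33 (CTATAATTAG at -50) and Kbtbd12 (CTATTTATAG at -91). The window of a further Klhl33 start held an M-CAT match at -63, a motif in 12.6% of windows. The windows of Klhl31 and Kbtbd13 held no match to any of the 4 motifs. For Klhl31, 232 of the 250 bases lie in the first exon of its GENCODE transcript, so its window is not shown. RefSeq windows matched 6 of the 8 genes, and Klhl30 and Klhl38 were not among them. A match is a description of the letters only.

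Klhl31 (ENSMUSG00000044938) lies on GRCm38 chromosome 9, 77636500 to 77660127, plus strand, with 1 annotated protein-coding transcript. It had 387, 334 and 459 reads in KO replicates 1 to 3, against 1100, 1257 and 1492 in WT replicates 1 to 3. On the TMM scale this was 237, 209 and 263 CPM in KO and 803, 857 and 1021 CPM in WT libraries. The highest KO library lay far under the lowest WT library. The means were 236 ± 27.2 CPM in KO and 894 ± 114 CPM in WT, a log2 fold change of -1.92 (SE 0.12). Adjusted for the slow-fibre score it was -1.89 (SE 0.10), and in 16 alternatives it lay between -2.02 and -1.68. The last value comes from library totals with no scaling factor, a setting that moves the median of all tested genes to 0.25 on the log2 scale, against 0.017 with TMM.

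Klhl40 (ENSMUSG00000074001, chromosome 9, 121777607 to 121783818, plus strand), the stabiliser of nebulin and leiomodin 3, had 321, 324 and 343 reads in KO replicates 1 to 3, against 222, 134 and 121 in WT replicates 1 to 3. That is 196, 202 and 196 CPM in KO libraries and 162, 91.3 and 82.8 CPM in WT libraries. Every KO library was above every WT library, as for 13.5% of all tested genes. The KO libraries were nearly equal (198 ± 3.42 CPM), while the WT libraries were spread (112 ± 43.4 CPM), with WT replicate 1 apart from the other two. The log2 fold change was 0.83 (SE 0.22) and just missed the threshold (edgeR adjusted p = 0.0519). It passed in all 10 alternatives that keep the 6 libraries. The adjusted p was 0.014 with DESeq2 and 0.0276 with limma voom. By edgeR it was 4.01e-06 with no filter and 0.0325 to 0.0482 in the others, close to the threshold. No filter also lowered the adjusted p of Neb, as given below. Library totals moved the median of all tested genes to 0.25, and leaving out the 20 most abundant genes moved it to 0.11. Passing in those settings is not read as support. Of the 6 alternatives that leave out a library it passed only without WT replicate 1, at 1.16 (edgeR adjusted p = 0.000841). The other 5 gave 0.64 to 0.84 (edgeR adjusted p 0.107 to 0.208). The annotated antisense gene Gm47108 overlaps an exon of Klhl40, and because the use of strand is not given, reads of the pair cannot be told apart.

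Klhl41 (ENSMUSG00000075307, chromosome 2, 69670120 to 69684230, plus strand), the other stabiliser of nebulin, did not pass. It had 108, 111 and 133 CPM in KO replicates 1 to 3, against 183, 187 and 117 CPM in WT replicates 1 to 3. WT replicate 3 fell among the KO libraries, and the other WT libraries lay above all of them. The log2 fold change was -0.47 ± 0.18 (SE), with an adjusted p by edgeR of 0.153. Without WT replicate 3 it was -0.66 and passed (edgeR adjusted p = 0.0266), and it also passed with no filter on low counts (-0.47, edgeR adjusted p = 0.0453). With no filter 362 genes were called lower over all genes, against 219 with the filter. WT replicate 3 was also the WT library with the lowest slow-fibre sum (91.7 CPM). KO replicate 3 had the lowest slow-fibre sum among KO libraries (156 CPM) but the highest KO level of Klhl41. After adjustment for the slow-fibre score the log2 fold change was again -0.47. A link between slow-fibre content and Klhl41 was not tested.

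Klhl38 (ENSMUSG00000022357, chromosome 15, 58314573 to 58324169, minus strand) had few reads. There were 2, 4 and 7 reads in KO replicates 1 to 3 and 10, 13 and 21 in WT replicates 1 to 3. The level was 2.58 ± 1.39 CPM in KO and 10.2 ± 3.72 CPM in WT, and the groups did not overlap, as for 12.2% of all tested genes on this side. The log2 fold change was -1.94 ± 0.46 (SE), with an adjusted p by edgeR of 0.0204. Since the gene passed the filter on low counts only through the WT libraries, the filter partly fixes this call, and it is given as a description. With no filter the value was -1.95 (edgeR adjusted p = 0.0015). That setting also took the edgeR adjusted p of the abundant gene Neb from 2.66e-05 to 2.57e-17. The lower p for Klhl38 is therefore not read as support for the call. The call was lost with limma voom (adjusted p = 0.0548) and without KO replicate 1, KO replicate 2, WT replicate 2 or WT replicate 3 (edgeR adjusted p 0.0583 to 0.126), and the direction was kept. A KO library held 3 reads at 1.72 to 1.87 CPM, so the KO levels sit near that floor. Gm15943 overlaps an exon of Klhl38 on the other strand, with the same limit as for Klhl40.

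Klhl30 and Kbtbd12 did not pass, and their genotypes overlapped. Klhl30 (chromosome 1, 91351016 to 91362416, plus strand) had 49, 57 and 32 reads in KO libraries and 39, 28 and 38 reads in WT libraries. Its level was 28.0 ± 8.81 CPM in KO and 24.5 ± 4.86 CPM in WT, a log2 fold change of 0.19 ± 0.26 (SE), with an adjusted p by edgeR of 0.757. Kbtbd12 (chromosome 6, 88545114 to 88637950, minus strand) had 14.1, 11.2 and 13.7 CPM in KO libraries and 22.6, 19.1 and 13.7 CPM in WT libraries (log2 fold change -0.50 ± 0.27 SE, adjusted p by edgeR = 0.335). The lowest WT library for Kbtbd12 was again WT replicate 3. Its level there lay within the KO range.

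Klhl33 and Kbtbd13 were near the limit of detection. Klhl33 (chromosome 14, 50888582 to 50897507, minus strand) had 7, 12 and 10 reads in KO libraries and 7, 22 and 9 in WT libraries, or 5.84 ± 1.61 CPM in KO and 8.75 ± 5.43 CPM in WT (exact two-sided permutation p = 0.6, n = 3 each). Kbtbd13 (chromosome 9, 65388684 to 65391652, minus strand), whose human counterpart is mutated in a nemaline myopathy with cores, had 4, 2 and 1 reads in KO libraries and 1, 0 and 1 in WT libraries (exact two-sided permutation p = 0.3, n = 3 each). The pooled ratio of KO to WT was 3.02 with an exact binomial 95% interval of 0.575 to 29.8, which covers counting error only. With 3 libraries against 3, the smallest possible exact two-sided p is 0.1, whatever the data. In the 6 alternatives whose filter let Klhl33 in, its log2 fold change was -0.88 to -0.42 (adjusted p 0.348 to 0.742). Kbtbd13 entered only with no filter, at 1.44 (edgeR adjusted p = 0.68).

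**Figure D2:**
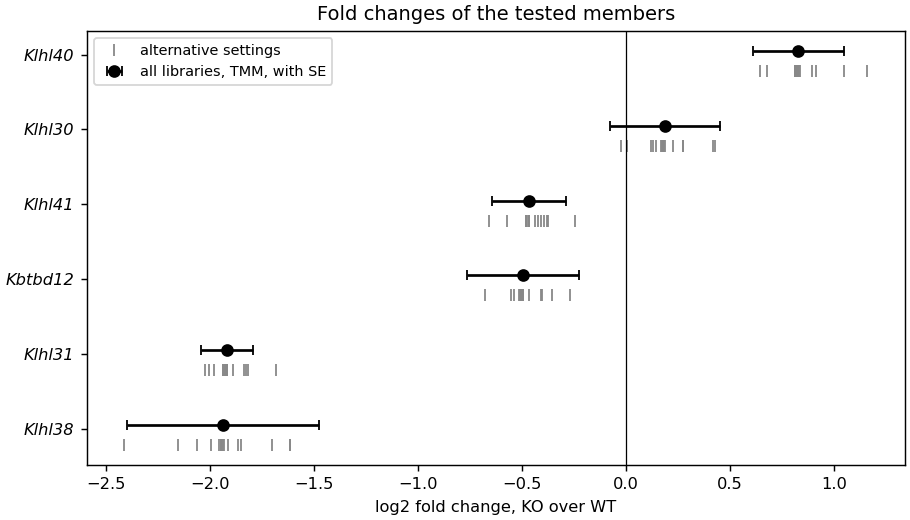
Log2 fold change of KO over WT (x axis) for the 6 tested genes, with the value and SE from all 6 libraries on the TMM scale as a black point and each of 16 alternatives as a grey tick. Klhl31, Klhl38, Klhl41 and Kbtbd12 stay left of 0, Klhl40 stays right of 0 and Klhl30 crosses it.

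The make-up of the kelch reads differed between genotypes, on a measure that does not depend on how libraries are scaled. Klhl31 held 39.1 ± 2.79% of the reads of the 8 genes in KO and 72.5 ± 6.76% in WT. Klhl40 held 33.0 ± 1.99% in KO and 9.15 ± 3.70% in WT, and Klhl41 held 19.4 ± 1.42% in KO and 13.3 ± 3.60% in WT. There were 1.21, 1.03 and 1.34 reads of Klhl31 for each read of Klhl40 in KO replicates 1 to 3, against 4.95, 9.38 and 12.3 in WT replicates 1 to 3. For the pair that does not involve Klhl31, there were 1.81, 1.83 and 1.47 reads of Klhl40 for each read of Klhl41 in KO libraries and 0.884, 0.489 and 0.708 in WT libraries. Klhl40 outnumbered Klhl41 in every KO library and in no WT library. Without Klhl31, the other 7 genes summed to 367 ± 8.67 CPM in KO and 337 ± 74.3 CPM in WT. These shares follow in part from the choice of Klhl31 and carry no test.

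**Figure D3:**
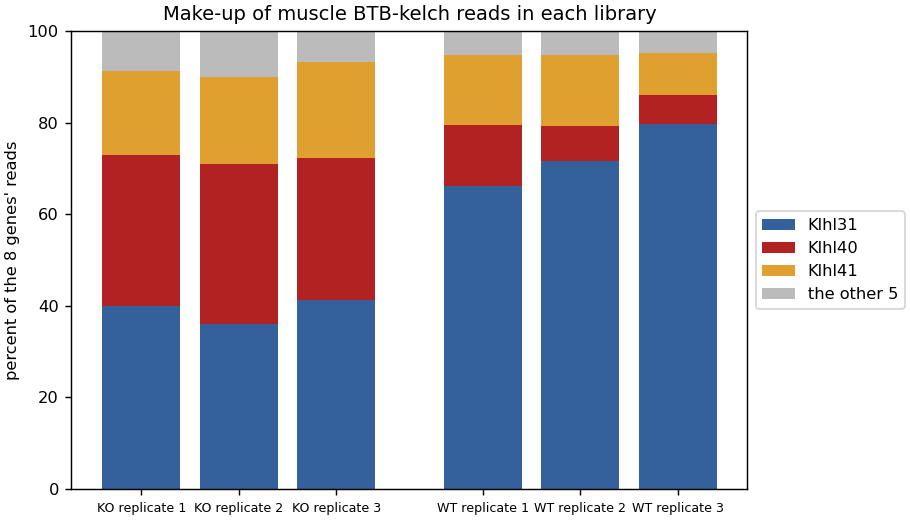
Percent of the summed reads of the 8 genes (y axis) held by Klhl31, Klhl40, Klhl41 and the other 5 genes in each KO and WT library. Klhl31 takes 36.0 to 41.4% in KO libraries and 66.2 to 79.7% in WT libraries, and Klhl40 takes 30.9 to 34.9% in KO libraries and 6.46 to 13.4% in WT libraries.

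Per kilobase of annotated exon, the order of the genes was not the same in the genotypes. In KO muscle Klhl40 stood at 79.3 ± 1.37 CPM per kilobase, Klhl41 at 46.4 ± 5.51 and Klhl31 at 36.4 ± 4.18, and the library ranges of these 3 did not overlap. In WT muscle Klhl31 led at 138 ± 17.6 CPM per kilobase, ahead of Klhl41 at 64.2 ± 15.5 and Klhl40 at 44.8 ± 17.4. The ranges of Klhl41 and Klhl40 overlapped across WT libraries, but within each WT library Klhl41 was the higher, at 72.4, 73.8 and 46.3 CPM per kilobase against 64.8, 36.5 and 33.1 for Klhl40. Klhl30 followed at 9.06 ± 2.85 CPM per kilobase in KO and 7.94 ± 1.57 in WT. Kbtbd12, Klhl38 and Klhl33 stood between 0.926 and 1.39 CPM per kilobase in KO and between 1.39 and 4.60 in WT. In KO the libraries of Klhl38 overlapped those of both others, while the lowest Kbtbd12 library lay just above the highest Klhl33 library (1.198 against 1.190 CPM per kilobase). Kbtbd13 had the lowest mean on this scale, at 0.479 ± 0.32 CPM per kilobase in KO and 0.159 ± 0.138 in WT. In KO replicate 1 it stood at 0.824, above Klhl33 (0.680) and Klhl38 (0.553). Nanopore cDNA reads can span whole transcripts, so dividing by length may overcorrect for the long Klhl31 (6494 bases of exon, against 2501 for Klhl40 and 2529 for Klhl41).

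The wider BTB-kelch family was read out for comparison. Of 41 other family genes listed, 13 were tested and edgeR called 0 in either direction, with 2 at an unadjusted p under 0.05. DESeq2 called 0, with 0 at an unadjusted p under 0.05, and limma voom called 0, with 2. At 6.26% of all tested genes called, a count of 0 among 13 is near the background. Their log2 fold changes ran from -0.36 to 0.76 with a median of -0.040, beside 0.017 for all tested genes. Keap1, the adaptor that holds NRF2 in check, had 39.2, 47.5 and 45.3 CPM in KO libraries and 43.8, 40.2 and 43.1 CPM in WT libraries. Klhl9 (log2 fold change -0.01, SE 0.20) and Klhl24 (0.06, SE 0.18) also had small differences. Larger ones were seen for Klhl23 (0.76) and Ivns1abp (-0.36), the 2 genes that edgeR placed under 0.05 before adjustment but did not call. Klhl23 stood at 14.7, 10.6 and 10.3 CPM in KO libraries, all above its WT libraries at 8.76, 6.13 and 6.16 CPM. Of all tested genes 13.5% were apart in this way. Klhl23 passed the filter on low counts only through its KO libraries, where it was higher. The filter therefore partly fixes its unadjusted p, and its values are a description. Ivns1abp stood at 44.1, 51.8 and 46.4 CPM in KO libraries, all below its WT libraries at 63.5, 62.0 and 57.5 CPM, as for 12.2% of all tested genes.

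The ligase that the adaptors join was represented by 27 genes, of which 24 were tested, 1 was called higher, 1 lower and 22 did not pass. With 6.26% of all tested genes called in either direction, this count is near the background. The median log2 fold change was 0.007. Cul3, the scaffold, had 28.8, 41.8 and 55.0 CPM in KO libraries and 57.6, 58.6 and 52.7 CPM in WT libraries (log2 fold change -0.42 ± 0.21 SE, adjusted p by edgeR = 0.291). Rbx1, its RING subunit, had a log2 fold change of -0.19 ± 0.11 (SE), with an adjusted p by edgeR of 0.362. The gene that rose was Cand2, the muscle-enriched relative of the cullin exchange factor CAND1. It had 36.7, 30.6 and 21.8 CPM in KO libraries and 11.7, 7.50 and 8.22 CPM in WT libraries (log2 fold change 1.70 ± 0.28 SE, adjusted p by edgeR = 0.00196), passing in all 16 alternatives. The gene that fell was Dcun1d2, which promotes the joining of NEDD8 to cullins. It had 53.2, 67.5 and 59.0 CPM in KO libraries and 98.5, 93.4 and 106 CPM in WT libraries (log2 fold change -0.73 ± 0.15 SE, adjusted p by edgeR = 0.0097), and missed the threshold only with library totals (edgeR adjusted p = 0.0551).

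A list of 4 known clients of the muscle kelch proteins was chosen and need not be complete. All were tested, 2 were called lower and 0 higher, where 3.28% of all tested genes were lower and 2.98% higher. Neb (nebulin), client of KLHL40 and KLHL41, had 5634, 5729 and 6236 CPM in KO libraries and 10643, 10696 and 11682 CPM in WT libraries, with no overlap (log2 fold change -0.91 ± 0.09 SE, adjusted p by edgeR = 2.66e-05). Nrap, a myofibril assembly protein bound by KLHL41, had 143, 172 and 166 CPM in KO libraries and 277, 230 and 203 CPM in WT libraries (log2 fold change -0.56 ± 0.14 SE, adjusted p by edgeR = 0.0287). The Nrap call was lost in 6 of 16 alternatives, those without KO replicate 1, KO replicate 3, WT replicate 1 or WT replicate 2, with library totals, and without the 20 most abundant genes in library sizes (edgeR adjusted p 0.0607 to 0.174). Lmod3 (leiomodin 3), client of KLHL40, had 78.3, 45.6 and 48.7 CPM in KO libraries and 63.5, 77.7 and 60.9 CPM in WT libraries (log2 fold change -0.23 ± 0.21 SE, adjusted p by edgeR = 0.607). Flnc (filamin C), a client of KLHL31, had 101, 96.8 and 86.5 CPM in KO libraries and 131, 101 and 62.3 CPM in WT libraries. The log2 fold change of Flnc, -0.05 ± 0.22 (SE), had an adjusted p by edgeR of 0.938, with a sign that differed between alternatives. Neb is also 1 of the 12 skeletal muscle markers, of which 6 were lower and 0 higher. The part of that wider fall in the client values was not tested. All of these are RNA levels, and the proteins were not measured.

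Of 11 other genes whose human counterparts are mutated in nemaline myopathy, 10 were tested, 4 fell, 0 rose and 6 did not pass, with a median log2 fold change of -0.52. Over all tested genes 3.28% were lower and 2.98% higher, with a median of 0.017. Those that fell were Neb, the skeletal actin gene Acta1 (log2 fold change -0.66, SE 0.11), the tropomyosin gene Tpm2 (-0.67, SE 0.11) and the Z-disc gene Mypn (-0.70, SE 0.14), each called in all 16 alternatives. Neb and Lmod3 stand in both this list and that of the clients. Mypn, myopalladin, had 111, 106 and 94.5 CPM in KO libraries and 155, 180 and 171 CPM in WT libraries. The slow-fibre genes Tpm3 and Tnnt1 did not pass and were highest in KO replicate 2 (471 and 38.1 CPM), the library with the highest slow-fibre sum. The skeletal marker sum was lower in every KO library than in any WT library on the TMM scale, as given above. Neb, Acta1 and Tnnt3 of this list are among those markers, so the sum is not a separate observation. Its part in these values was not tested.

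**Figure D4:**
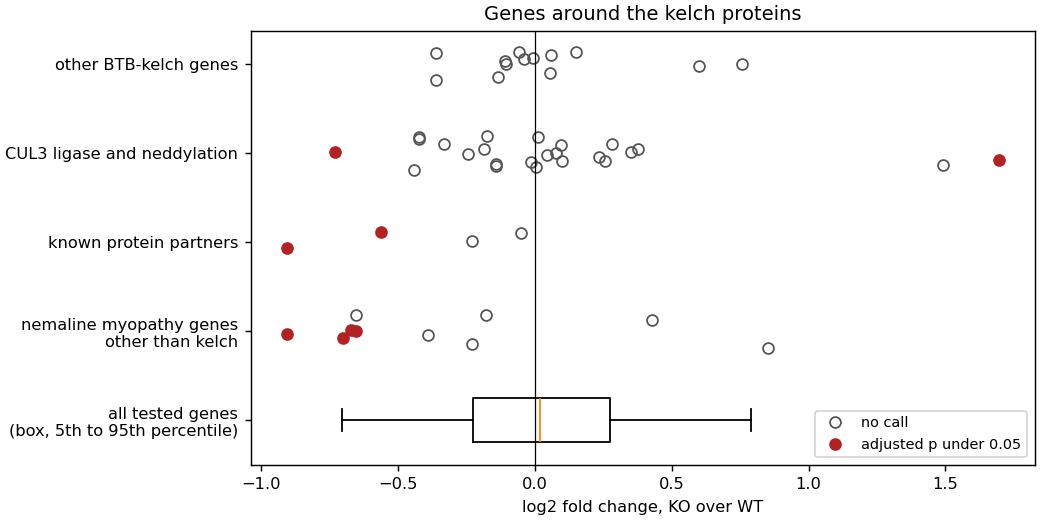
Log2 fold change of KO over WT (x axis) for the tested genes of 4 lists, filled where the edgeR adjusted p was under 0.05, above a box for all 6680 tested genes (median, quartiles, and 5th to 95th percentile). The 13 other BTB-kelch genes have no filled point, while Cand2 lies at 1.70 and Neb at -0.91.

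The 5 tested genes nearest to Klhl31 in pattern were Phka1, Gpd2, Sgk1, Trdn and Ppp1r3a. Nearness is the root mean square difference over the 6 libraries of log2(CPM + 1), centred on each gene's own mean, among genes averaging at least 20 CPM. Phka1, a regulatory subunit of phosphorylase kinase, differed from Klhl31 by 0.119 on the log2 scale. Gpd2, the mitochondrial glycerol-3-phosphate dehydrogenase, differed by 0.123, and the kinase gene Sgk1 by 0.131. Trdn, triadin of the calcium release complex, differed by 0.132, and Ppp1r3a, which targets protein phosphatase 1 to glycogen, by 0.175. Gpd2 averaged 41.1 ± 6.79 CPM in KO and 146 ± 27.2 CPM in WT, and Ppp1r3a 151 ± 21.3 CPM in KO and 479 ± 14.1 CPM in WT. Each of the 5 shares the gap between genotypes for which Klhl31 was picked, so the likeness is a description with no test.

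**Figure D5:**
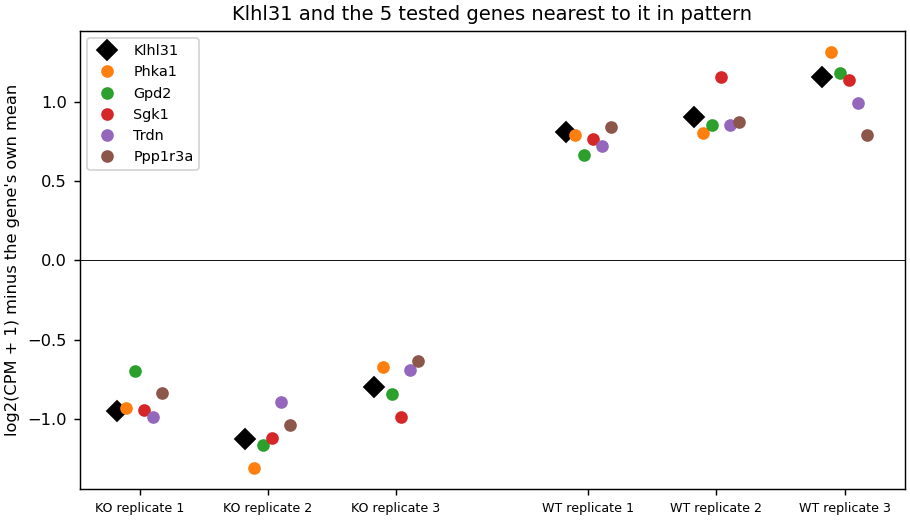
Log2(CPM + 1) minus each gene's own mean (y axis) in each KO and WT library, for Klhl31 (black diamonds) and the 5 nearest genes (coloured points, set side by side). All 6 genes lie below 0 in the KO libraries and above 0 in the WT libraries.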

How the data were processed

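Total RNA of quadriceps femoris was made into cDNA by template switching, amplified by PCR and read on a nanopore instrument, per the labels' protocols. The authors deposited whole-number read counts per Ensembl gene for 22036 genes, not normalized, and CPM of the same genes, per the file headers. The deposited CPM over the listed genes sum to 95.9 to 96.9% of the CPM total and were not used otherwise. Per the submitters' processing notes, tools include minimap2 and DESeq2 1.6.3 and the build is GRCm38; for the counter, annotation release and strand setting, nothing is given in the sources used here. Symbols come from a name table that held 22022 identifiers. Positions are from GENCODE M21 on GRCm38 and upstream sequences from RefSeq on GRCm38.p6.

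Counts were fitted across all genes using edgeR 4.0.16 under R 4.3.3, after filterByExpr per genotype (minimum count 10, minimum total 15), TMM scaling and a robust quasi-likelihood test of KO against WT over 6680 genes, with Benjamini-Hochberg adjustment at 0.05. SEs are the log2 fold change over the square root of F. The steps were tested on simulated counts. The 8 genes, the gene lists and the tests were chosen with earlier results of these data known. Named genes are all 8 members, every called gene of each list, all listed clients, and the 5 genes nearest to Klhl31. The other named kelch, ligase and myopathy genes and the chromosomal neighbours were chosen after their values were seen. Alternatives were RLE, upper-quartile and no scaling, library sizes without the 20 most abundant genes, no filter, 5 CPM in 3 libraries, DESeq2 1.42.0, limma 3.58.1 voom, robust=FALSE, a slow-fibre score as a covariate, and each library left out. Libraries are numbered 1 to 3 in accession order. Within genotypes, chi-square over its degrees of freedom was 2.19 to 5.35 between libraries, so none was counted as a repeat. Protein sequences were not used here.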

Additional observations from a re-analysis of the deposited data

How the results depend on the processing

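Klhl31, Klhl38, Klhl41 and Kbtbd12 kept a negative log2 fold change and Klhl40 a positive one in all 16 alternatives, whether called or not. Among the alternatives that keep the 6 libraries, the Klhl31 value moved by more than the spread between replicates only with library totals (-1.68). With a library left out Klhl31 ran from -2.02 to -1.82. Leaving out 1 of 3 libraries can hardly move it by that spread, so these fits are not judged by it. Klhl38 lost its call with limma voom (-1.93). With a library left out it ran from -2.41 to -1.61, and the call was held without KO replicate 3 or WT replicate 1 and lost in the other 4 (-2.06 to -1.61). Klhl40 passed with RLE scaling (0.81), upper-quartile scaling (0.82), library totals (1.05), without the 20 most abundant genes (0.91), no filter (0.82), 5 CPM in 3 libraries (0.82), limma voom (0.89), DESeq2 (0.81), the slow-fibre covariate (0.82) and robust=FALSE (0.83), and ran from 0.64 to 1.16 with a library left out. Klhl41 passed with no filter (-0.47) and ran from -0.66 to -0.38 with a library left out. Klhl30 changed sign without KO replicate 2 (-0.025), with a range of -0.025 to 0.42 over the libraries left out. Flnc was positive with library totals (0.17), without the 20 most abundant genes (0.037) and with limma voom (0.014), and ran from -0.30 to 0.19 with a library left out, above 0 without KO replicate 3 or WT replicate 1. Lmod3 was positive with library totals (0.0078). The cause was not tested.

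Over all genes, 199 were higher and 219 lower in KO. Those higher were 653 with library totals, 299 without the 20 most abundant genes and 344 with no filter, and 83 to 179 with a library left out (101, 83 and 129 without WT replicates 1, 2 and 3). Those lower were 148 with library totals and 362 with no filter. In the ligase list 2 genes were higher with no filter, 1 to 2 with a library left out, and 0 were lower with library totals. Among the clients 1 was lower with library totals and without the 20 most abundant genes, and 1 to 2 with a library left out. These list counts and the shares were recomputed as alternatives chosen after the data were seen. Leaving out 1 of 3 libraries cannot move a mean by the SD of the 3, so nothing is read from shares staying within it. No paired analysis was possible because the labels give no numbers that pair KO with WT libraries. Depth limits Klhl33, Klhl38 and Kbtbd13, and intervals cover counting error only.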

Other observations

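For each of the 8 kelch genes, the nearest tested gene on each side along the chromosome was read out as a description. Of these neighbours Hhatl, Zfp651, Mlip and Xirp2 were called. That is a larger share than the 6.26% of all tested genes called in either direction, and it was not tested. The neighbours of Klhl30, Klhl33, Klhl38, Kbtbd12 and Kbtbd13 were not called, and their values are not given. Hhatl, the nearest tested neighbour of Klhl40, ends 0.198 kilobases beyond it on the opposite strand and had 134, 105 and 113 CPM in KO libraries and 80.3, 66.8 and 87.6 CPM in WT libraries. The log2 fold change of Hhatl, 0.58 ± 0.16 (SE), had an adjusted p by edgeR of 0.0428, and the call was lost in 9 of 16 alternatives (adjusted p up to 0.26). Zfp651, 5.87 kilobases to the other side of Klhl40, was called lower at -0.61 ± 0.17 (SE), with an adjusted p by edgeR of 0.0452, and its call was held in 4 of 16 alternatives (adjusted p up to 0.171). The strand setting of the counting is not given.

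Mlip, a muscle lamin-interacting protein gene 284 kilobases from Klhl31, had 14.1, 11.9 and 14.3 CPM in KO libraries and 24.8, 32.7 and 30.8 CPM in WT libraries (log2 fold change -1.13 ± 0.23 SE, adjusted p by edgeR = 0.00737, called in all 16 alternatives). On the other side of Klhl31, Elovl5 had a log2 fold change of 0.05 (SE 0.20). Xirp2, the nearest tested gene on the left of Klhl41 at 2144 kilobases, had 181, 195 and 255 CPM in KO libraries and 525, 552 and 402 CPM in WT libraries (log2 fold change -1.22 ± 0.15 SE, adjusted p by edgeR = 0.000236). Fastkd1, 2.58 kilobases to the right of Klhl41, did not pass (log2 fold change -0.27 ± 0.32 SE, adjusted p by edgeR = 0.708).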
